A study of Mus musculus with 79 samples.

Results

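A set of 38 macrophage genes was followed by RNA-seq through caudal vertebrae (CV), lumbar vertebrae (LV) and inguinal white adipose tissue (iWAT) of mice given leptin or PBS into the brain. The genes were taken by symbol, as known macrophage genes and with earlier results of these data known, from the 39063 genes in the tables that carry a numeric gene identifier. All 38 were found, and all 38 were among the 14873 genes tested, which had a mean TPM (a level scaled by transcript length and library size) of at least 0.4 over the 79 libraries. They were split by role into 7 pan-macrophage genes, 12 genes of tissue-resident macrophages, 6 genes of lipid-associated macrophages, 5 genes of iron-recycling macrophages and 8 inflammatory genes.

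The 79 libraries came from 51 mice on a mixed SJL and C57BL6 background. Per the study's figure legends the animals were 4 to 6 months old. Wild-type mice (WT, BMAd-*Pnpla2*+/+) were compared with littermates lacking the lipase ATGL, the product of *Pnpla2*, in bone marrow adipocytes (cKO, BMAd-*Pnpla2*-/-). Every mouse carried an intracerebroventricular (ICV) osmotic pump for 9 days that delivered PBS or leptin at 100 ng/hr, and some male WT mice also received a subcutaneous insulin pellet. Per the paper's methods, leptin and PBS mice were pair-fed after recovery from surgery, on a weighed daily ration below the usual intake of control mice. CV, the vertebrae of the tail, are filled with stable bone marrow fat, LV hold red marrow, and iWAT is a peripheral fat pad. Female WT mice gave 5 PBS and 5 leptin libraries from each of the 3 tissues, and female cKO mice gave 4 PBS and 4 leptin libraries from CV and from LV. Male mice gave CV only, with 5 PBS and 8 leptin libraries from WT, 5 PBS and 4 leptin libraries from cKO, and 5 PBS and 6 leptin libraries from WT with insulin. The deletion is restricted to marrow adipocytes, so the macrophages of cKO mice keep *Pnpla2*. Each library is a bulk tissue, in which more cells of a type and more RNA per cell cannot be told apart.

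Macrophages are the resident phagocytes of bone marrow and fat. Tissue-resident cells, marked by complement C1q and scavenger receptors, clear dying cells, and in red marrow a further population engulfs old red cells and returns their iron through heme oxygenase and ferroportin. In fat, macrophages that take up lipid from adipocytes switch on a lipid-associated program with *Trem2*, *Gpnmb* and *Cd9*, whereas monocytes recruited through the receptor *Ccr2* carry inflammatory cytokines. Several of the 38 genes are also used by other cells: *Lyve1* by lymphatic endothelium, *Slc40a1* by erythroid cells, *Il1b*, *Tlr2* and *Fcgr3* by neutrophils, *Gpnmb*, *Cd68* and *Cd9* by osteoclasts, and *Ccl2* and *Ccl7* by stromal cells.

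The promoters of 5 genes called changed under leptin in CV are shown, and 2 further called genes with a window are described in words. Each of the 5 shown, and that of *Mrc1*, is the 250 bases before the RefSeq gene start on GRCm38.p6, written 5′ to 3′ on the gene's own strand. The window of *Ccr2* (chr9:124101933-124102182, + strand) is not, as it lies past the annotated gene start at 124101918. Capitals mark matches, on either strand, to the letters of PU.1 (GAGGAA), ISRE (the interferon-stimulated response element), GAS (TTCNNNGAA) and AP-1 (TGANTCA).
Cd68 chr11:69666171-69666420 (- strand): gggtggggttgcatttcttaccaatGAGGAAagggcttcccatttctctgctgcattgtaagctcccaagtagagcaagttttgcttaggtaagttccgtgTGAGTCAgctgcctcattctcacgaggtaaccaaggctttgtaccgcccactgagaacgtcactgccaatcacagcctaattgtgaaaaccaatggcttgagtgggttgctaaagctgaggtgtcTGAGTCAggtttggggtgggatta
Fcgr1 chr3:96293970-96294219 (- strand): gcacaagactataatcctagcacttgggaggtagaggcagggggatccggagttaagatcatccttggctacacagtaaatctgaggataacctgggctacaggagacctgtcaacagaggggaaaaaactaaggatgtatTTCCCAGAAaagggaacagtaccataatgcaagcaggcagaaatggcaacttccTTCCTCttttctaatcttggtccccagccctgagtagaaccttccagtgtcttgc
Fcgr4 chr1:171018676-171018925 (+ strand): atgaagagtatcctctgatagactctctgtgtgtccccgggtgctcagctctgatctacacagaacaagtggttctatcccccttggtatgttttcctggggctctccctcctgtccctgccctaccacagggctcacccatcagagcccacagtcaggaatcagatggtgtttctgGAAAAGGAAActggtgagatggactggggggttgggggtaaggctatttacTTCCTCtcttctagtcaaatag
Ccl8 chr11:82114935-82115184 (+ strand): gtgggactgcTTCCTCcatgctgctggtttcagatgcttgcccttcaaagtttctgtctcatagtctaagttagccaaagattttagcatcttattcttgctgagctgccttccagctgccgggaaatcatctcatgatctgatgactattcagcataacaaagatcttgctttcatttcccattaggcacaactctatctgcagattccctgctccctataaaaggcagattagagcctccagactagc
Vsig4 chrX:96293439-96293688 (- strand): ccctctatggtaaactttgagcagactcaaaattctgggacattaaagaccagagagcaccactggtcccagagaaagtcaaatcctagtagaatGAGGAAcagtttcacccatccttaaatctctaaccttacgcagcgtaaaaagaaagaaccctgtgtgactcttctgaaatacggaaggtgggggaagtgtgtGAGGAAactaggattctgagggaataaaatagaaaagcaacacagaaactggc
PU.1 is the transcription factor that specifies myeloid cells. Its letters were in the 5 windows shown and in that of *Mrc1*, but not in that of *Ccr2*, which lies past the gene start. They were in 23.3% of the 32851 RefSeq windows of this length. *Cd68* also held 2 AP-1 matches, *Fcgr1* held 1 GAS match and *Fcgr4* held 1 ISRE match. Of all windows, 6.75% held the AP-1 letters, 7.02% the GAS letters and 2.98% the ISRE letters. The letters of the antioxidant element (ARE, TGACNNNGC), in 10.2% of all windows, were not in these 5. Of the 10 members called under leptin in CV, 7 had a window. The other 2 of those 7, *Mrc1* and *Ccr2*, held 3 matches to PU.1 and none to any of the 5 motifs, respectively. *Hmox1*, *Siglec1* and *Slc40a1* had no entry. A match is a description of the letters, not a measured binding site.

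Depth was even within each tissue, at 16100377 to 19364106 counts in CV, 28717516 to 29757254 in LV and 17638318 to 19100698 in iWAT, and every library differed from the others of its group. General macrophage genes were present in every library of every tissue. *Adgre1*, the F4/80 antigen, was at a TPM of 12.2 to 34.2 in CV, 10.6 to 23.6 in LV and 11.6 to 33.8 in iWAT. *Cd68*, a lysosomal glycoprotein of phagocytes, was at 79.1 to 392 in CV, 74.7 to 125 in LV and 38.2 to 175.5 in iWAT. *Csf1r*, the receptor for macrophage colony-stimulating factor, was at 92.9 to 312, 42.8 to 86.9 and 49.8 to 120. The deleted gene *Pnpla2* was lower in cKO than in WT over the 40 CV libraries without insulin (log2 fold change -0.50 ± 0.10 SE, adjusted p = 0.00820), with medians of 261 in female and 228 in male WT PBS mice and 165.3 and 160.6 in the cKO mice. Fold changes are given as log2 values from edgeR's quasi-likelihood test, and a gene was called higher or lower at an adjusted p under 0.05 over all tested genes and a log2 fold change of at least 0.5 either way.

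Leptin was first compared with PBS in CV of female WT mice. Of the 38 macrophage genes 8 were called higher with leptin and 1 was called lower. Of all tested genes 2.78% were called higher and 2.25% lower, 5.04% in all. The genes called higher were *Hmox1*, *Cd68*, *Ccl8*, *Siglec1*, *Fcgr1*, *Ccr2*, *Slc40a1* and *Mrc1*, and the gene called lower was *Vsig4*. Fold changes were positive for 30 of 38 members with a median of 0.25, beside 47.7% of all tested genes and a median of -0.01. In 6 members (*Cd68*, *Csf1r*, *Siglec1*, *Ccr2*, *Ccl8* and *Tlr2*) every leptin mouse was above every PBS mouse, and in *Vsig4* every leptin mouse was below, beside 3.81% and 2.75% of tested genes.

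The iron-recycling genes held the largest change. *Hmox1* (chr8:75093618-75100593, GRCm38.p6) encodes heme oxygenase, which breaks down heme to release iron. *Hmox1* was at a TPM of 58.9, 43.8, 50.4, 116 and 74.5 in the PBS mice and 193, 108, 226, 237 and 116 in the leptin mice. All 5 leptin mice were at or above 108, and only the fourth PBS mouse reached into that range. The difference was called (log2 fold change 1.31 ± 0.25 SE, adjusted p = 0.0136). *Slc40a1* encodes ferroportin, the exporter of that iron. *Slc40a1* was at a TPM of 26.0, 27.2, 29.3, 43.0 and 39.6 in the PBS mice and 45.1, 36.8, 75.7, 63.1 and 44.9 in the leptin mice. The groups overlapped, with the lowest leptin mouse under the fourth and the fifth PBS mouse, and the difference was called (log2 fold change 0.65 ± 0.16 SE, adjusted p = 0.0333). The other 3 genes of the role, *Cd163*, *Cd5l* and *Spic*, had log2 fold changes of 0.07 to 0.65 and were not called. *Cd163* encodes the receptor for haptoglobin-bound hemoglobin, and *Spic* the transcription factor of red pulp macrophages.

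All 7 pan-macrophage genes had positive fold changes and 2 were called. *Cd68* was at a TPM of 111, 116, 164, 147 and 165.3 in the PBS mice and 225, 297, 282, 256 and 251 in the leptin mice. The groups were clear of each other (log2 fold change 0.87 ± 0.14 SE, adjusted p = 0.00620). *Fcgr1* encodes the high-affinity IgG receptor. *Fcgr1* was at a TPM of 4.51, 5.19, 6.59, 5.74 and 8.18 in the PBS mice and 15.9, 8.72, 7.81, 10.2 and 8.97 in the leptin mice. The groups overlapped at 1 pair of values, since the fifth PBS mouse was above the third leptin mouse, and the difference was called (log2 fold change 0.75 ± 0.20 SE, adjusted p = 0.0395). *Csf1r*, the most abundant gene of the role in female PBS mice, was at a TPM of 145, 138, 168.3, 167.3 and 185.3 in the PBS mice and 222, 194, 283, 209 and 200.3 in the leptin mice. These groups did not overlap, but the difference stayed under the fold threshold (log2 fold change 0.44 ± 0.10 SE, adjusted p = 0.0255). The other members, *Adgre1*, *Mpeg1*, *Fcgr3* and *Fcgr4*, had log2 fold changes of 0.24 to 0.48 and were not called. *Mpeg1* encodes the pore-forming perforin-2, and *Fcgr3* and *Fcgr4* are further IgG receptors.

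The resident genes split, with *Siglec1* and *Mrc1* higher and *Vsig4* lower. *Siglec1* (chr2:131067801-131086778) encodes sialoadhesin, the CD169 of marrow macrophages. *Siglec1* was at a TPM of 5.06, 5.22, 7.07, 5.14 and 7.43 in the PBS mice and 11.2, 8.06, 15.7, 11.1 and 8.08 in the leptin mice. The groups were clear of each other (log2 fold change 0.82 ± 0.16 SE, adjusted p = 0.0140). *Mrc1* encodes the mannose receptor. *Mrc1* was at a TPM of 50.5, 50.7, 49.2, 55.9 and 59.2 in the PBS mice and 72.3, 49.7, 102, 98.9 and 66.7 in the leptin mice. The second leptin mouse stayed within the PBS range, and the difference was called (log2 fold change 0.51 ± 0.13 SE, adjusted p = 0.0329). *Vsig4* encodes the complement receptor CRIg. *Vsig4* was at a TPM of 16.4, 22.2, 17.9, 17.6 and 19.0 in the PBS mice and 14.0, 8.77, 12.99, 9.88 and 15.1 in the leptin mice. Every leptin mouse was below every PBS mouse (log2 fold change -0.66 ± 0.14 SE, adjusted p = 0.0200). *C1qc*, a chain of C1q and the most abundant resident gene, was at 417, 369.6, 428, 495 and 566 in the PBS mice and 663, 336.2, 569, 504 and 434 in the leptin mice. It did not differ beyond its spread (log2 fold change 0.09 ± 0.13 SE, adjusted p = 0.729), and the chains *C1qa* and *C1qb* were at log2 fold changes of 0.11 and 0.08. The other members, *Timd4*, *Folr2*, *Lyve1*, *Maf*, *Mertk* and *Axl*, ran from -0.41 to 0.24 with none called. *Timd4*, *Mertk* and *Axl* encode receptors for the phosphatidylserine of dying cells.

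None of the 6 lipid-associated genes was called in female WT CV, and none had an unadjusted p under 0.05. *Cd9*, a tetraspanin and the most abundant gene of the role, was at a TPM of 831, 781, 712, 981 and 1005 in the PBS mice and 999, 532, 901, 881 and 844 in the leptin mice. The groups overlapped (log2 fold change -0.10 ± 0.12 SE, adjusted p = 0.636). *Trem2*, a lipid receptor, was at a log2 fold change of 0.18 ± 0.09 SE and *Gpnmb*, a lysosomal glycoprotein, at 0.13 ± 0.19. *Lgals3*, *Itgax* and *Msr1*, which encode galectin-3, the integrin CD11c and a scavenger receptor, were at -0.04, 0.06 and 0.39. The lowest adjusted p of the role was 0.248.

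The inflammatory genes were led by a chemokine and a chemokine receptor. *Ccl8*, a ligand that draws monocytes and other leukocytes, was the most abundant of them. *Ccl8* was at a TPM of 122, 104, 115, 122 and 135 in the PBS mice and 264, 209, 216, 248 and 215 in the leptin mice. The lowest leptin mouse was far above the highest PBS mouse (log2 fold change 0.86 ± 0.08 SE, adjusted p = 0.000309). *Ccr2* was at a TPM of 22.3, 23.8, 25.2, 21.6 and 20.9 in the PBS mice and 31.7, 36.3, 31.3, 44.7 and 43.2 in the leptin mice. This receptor for *Ccl2* and *Ccl7* was also clear between the groups (log2 fold change 0.68 ± 0.13 SE, adjusted p = 0.0136). *Tlr2*, a receptor for bacterial lipoproteins, was at 10.5, 9.65, 10.8, 11.5 and 11.3 in the PBS mice and 17.7, 11.7, 12.3, 12.4 and 13.01 in the leptin mice, without overlap, and was not called (log2 fold change 0.30 ± 0.11 SE, adjusted p = 0.112). The cytokines and ligands *Tnf*, *Il1b*, *Ccl2* and *Ccl7* were at log2 fold changes of 0.62, 0.52, 0.48 and 0.72, and the endotoxin receptor *Tlr4* was at -0.09. None of these 5 was called.

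**Figure D1:**
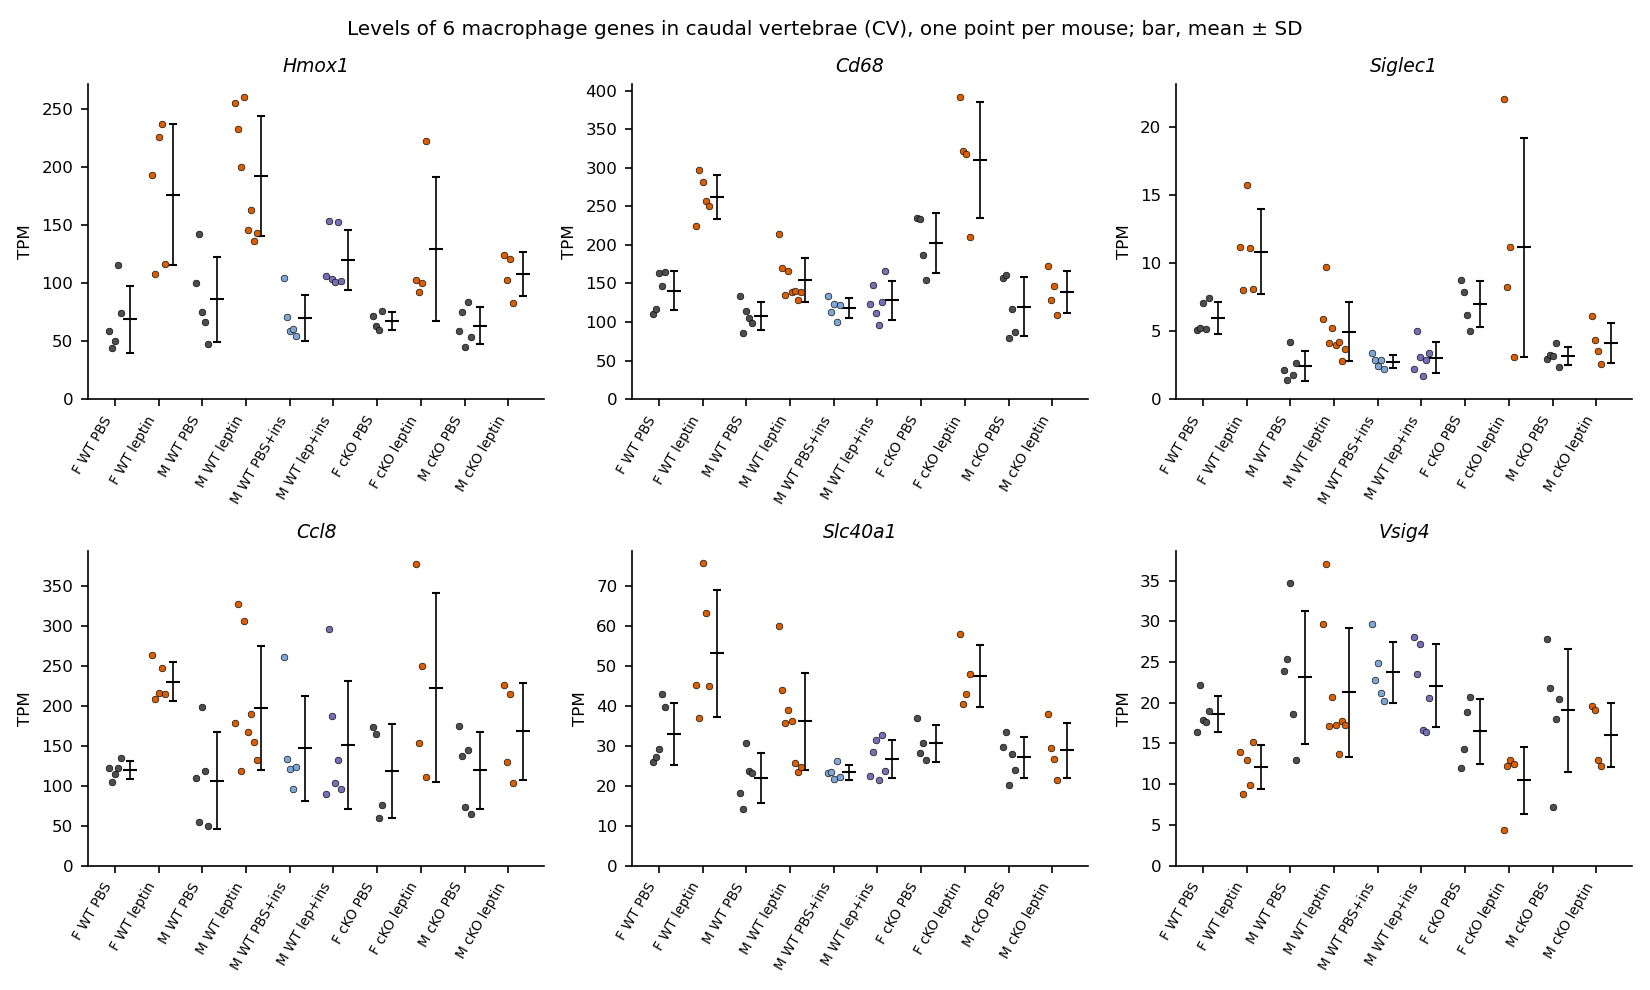
TPM of Hmox1, Cd68, Siglec1, Ccl8, Slc40a1 and Vsig4 in CV, with 1 point per mouse and the bar and error bar giving the mean and SD. F and M are female and male, lep is leptin and ins is the insulin pellet. In female WT mice the Ccl8 points lie at 104 to 135 with PBS and at 209 to 264 with leptin, and the Vsig4 points lie lower with leptin.

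The female WT mice fell into 2 series of mouse numbers, and leptin and PBS mice were in both. The difference of mean log2(TPM + 1) between leptin and PBS mice was taken within each series, in the lower-numbered with 2 leptin and 3 PBS mice and in the higher-numbered with 3 and 2. *Hmox1* differed by 1.50 in the lower and 0.98 in the higher series, *Ccl8* by 1.04 and 0.81, and *Cd68* by 1.01 and 0.75. All 9 called genes kept their direction in both. *Siglec1* and *Ccr2* were at 0.64 and 0.77 and at 0.50 and 0.86. *Slc40a1* was at 0.55 and 0.53. The least even were *Fcgr1*, at 1.01 and 0.34, and *Mrc1*, at 0.25 and 0.60. *Vsig4* was lower in both, at -0.70 and -0.52. Without the second PBS mouse the count of called members fell from 9 to 5, and *Vsig4* was then no longer called (adjusted p = 0.0579). *Mrc1*, *Fcgr1* and *Slc40a1* lost their calls in 11, 9 and 8 of 20 other settings.

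Other genes of macrophages, from lists drawn up beside the 38, moved with them in part. Of 18 further identity genes 4 were called higher, *Aif1* 0.72, *Tyrobp* 0.65, *Laptm5* 0.62 and *Spi1* 0.59 (log2 fold changes). *Tyrobp* encodes the adaptor DAP12, and *Spi1* encodes PU.1 itself. Of 23 genes of inflammatory and alternative activation 4 were higher, *Clec10a* 0.81, *Nlrp3* 0.72, *Tgfb1* 0.55 and *Ccl9* 0.53. Of 16 further lipid-associated genes 1 was lower, the fatty acid transporter *Cd36* -0.68, and of 8 growth factors and bridging ligands 1 was higher, *Gas6* 0.68, the ligand of *Mertk* and *Axl*. None of 14 further genes of iron handling was called.

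Markers of other cells that share these genes also moved in female WT CV. The summed TPM of 8 osteoclast markers ran from 1079 to 3279 with PBS and 2054 to 6567 with leptin, and 3 of 8 were called higher (*Dcstamp* 1.81, *Ocstamp* 1.70 and *Mmp9* 1.36). Osteoblast markers summed to 2367 to 6415 and 5311 to 16074, with 3 of 6 higher. Erythroid markers summed to 1174 to 3766 and 2322 to 10773, with 2 of 8 higher (*Alas2* 2.00 and *Hba-a1* 1.58) and 2 lower (*Ahsp* -2.72 and *Slc4a1* -1.84). Adipocyte markers summed to 2657 to 4781 and 1690.1 to 3616, with 4 of 7 lower. Monocyte markers were at 451 to 579 and 459.8 to 590.1 with 0 of 6 called, and neutrophil markers were at 2173 to 11505 and 1029 to 5390.1 with 0 of 10 called. None of the markers of these 6 lists was at 0 in all libraries of either group. The part of these cells in the macrophage genes' changes was not tested.

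**Figure D2:**
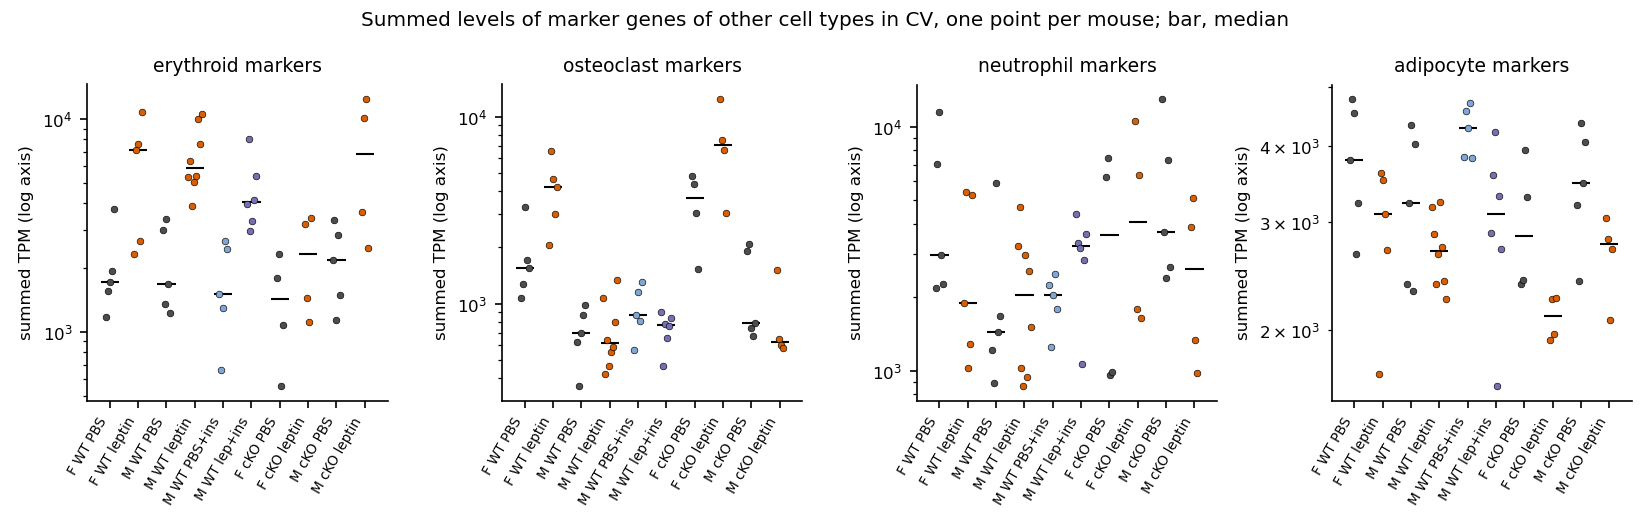
Summed TPM (log axis) of erythroid, osteoclast, neutrophil and adipocyte markers in each CV library, with 1 point per mouse and the bar giving the median. F and M are female and male, lep is leptin and ins is the insulin pellet. In both WT sexes the erythroid sums reach higher with leptin, to 10773 in females and 10476 in males.

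In CV of male WT mice 1 of 38 members, *Hmox1*, was called higher and none lower, beside 0.834% and 0.914% of tested genes. *Hmox1* was at a TPM of 100.3, 142, 74.9, 66.3 and 47.1 in the PBS mice, while the 8 leptin mice had a lowest TPM of 136, a median of 181.8 and a highest of 260.1. The groups overlapped only at the second PBS mouse (log2 fold change 1.10 ± 0.24 SE, adjusted p = 0.0254), and the call was lost without the third, the fourth or the fifth PBS mouse. The count of called members was 5 with DESeq2, which called 460 of all tested genes where edgeR called 260. The member count was 4 without the third PBS mouse and 0 without the fourth or the fifth. The share of all tested genes called was not taken in these refits. Fold changes were positive for 33 of 38 members with a median of 0.37, beside 50.1% of all tested genes, and 20 members had an unadjusted p under 0.05 in the higher direction, beside 9.45% of all genes. *Fcgr3* had an adjusted p of 0.0304 at a log2 fold change of 0.41, under the fold threshold.

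The genes called in females lay on the same side in male WT mice without passing the test used here, apart from *Hmox1*. The paper's own list of changed genes gives *Siglec1* as higher with leptin in WT CV of both sexes. *Siglec1* was at 2.14, 1.38, 4.20, 1.75 and 2.65 in the PBS mice and had a lowest TPM of 2.78, a median of 4.17 and a highest of 9.73 with leptin (log2 fold change 0.97 ± 0.28 SE, adjusted p = 0.0728). *Cd68* was at 134, 86.0, 114, 105 and 99.0 and had a lowest TPM of 129, a median of 139 and a highest of 214 (log2 fold change 0.47 ± 0.13 SE, adjusted p = 0.0594). *Ccl8* was at 110.3, 54.6, 199, 118 and 50.2 and had a lowest TPM of 119, a median of 173 and a highest of 328 (log2 fold change 0.83 ± 0.32 SE, adjusted p = 0.173). All 3 overlapped between the groups. *Fcgr4*, *Slc40a1*, *Fcgr1*, *Mrc1* and *Ccr2* were at log2 fold changes of 0.89, 0.65, 0.56, 0.47 and 0.42, and *Vsig4* at -0.18. Within the 2 series of mouse numbers, with 5 leptin and 3 PBS mice and with 3 and 2, *Hmox1* differed by 1.06 and 1.38 on the log2(TPM + 1) scale. *Siglec1* differed by 0.94 and 0.51, while *Slc40a1* differed by 1.04 and 0.06 and *Ccr2* by 0.69 and -0.46, so for these last 2 the difference lay mainly in the first. The osteoclast sums were 362 to 989 with PBS and 421 to 1335 with leptin, with 0 of 8 markers called. The erythroid sums were 1228 to 3393 and 3871 to 10476, with 3 of 8 called higher, and their part in *Hmox1* was not tested. Other called genes of the lists were *Il10* 2.19, *Clec10a* 0.92, *Ccl9* 0.78 and *Il4ra* 0.52 among 23 activation genes, *Laptm5* 0.58 and *Fcer1g* 0.52 among 18 identity genes, *Gas6* 0.71 and *Cxcl12* 0.65 among 8 ligands, and *Tfrc* -0.57, the transferrin receptor, lower among 14 iron genes. *Il10* rests on low levels, at a TPM of 0.07 to 0.21 with PBS and 0.3 to 1.59 with leptin.

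In CV of cKO mice no member was called. In female cKO mice 4 members had an unadjusted p under 0.05, all higher, beside 5.49% of all tested genes. DESeq2 called 2 members and 219 of all tested genes, while edgeR called 0% of all genes higher and 0.0269% lower. *Hmox1* was at a TPM of 71.2, 63.2, 59.2 and 76.2 in the PBS mice and 103, 92.6, 99.9 and 222 in the leptin mice. The fourth leptin mouse stood apart, and the test did not call the gene (log2 fold change 1.08 ± 0.33 SE, adjusted p = 0.331). In male cKO mice 5 members had an unadjusted p under 0.05, all higher, beside 4.76% of all tested genes. DESeq2 called 1 member and 211 of all tested genes, while edgeR called 0.0874% of all genes higher and 0.101% lower. *Hmox1* was at 58.3, 74.9, 44.8, 83.7 and 53.9 with PBS and 124, 103, 121 and 83.0 with leptin (log2 fold change 0.81 ± 0.17 SE, adjusted p = 0.0904). Fold changes were positive for 29 of 38 members in either sex, beside 54.0% of all tested genes in females and 50.6% in males, with medians over the members of 0.23 and 0.13.

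The other genes called in female WT mice gave the following values in cKO CV. *Ccl8* was at 174, 165.4, 60.02 and 75.8 with PBS and 378, 153, 249.95 and 112 with leptin in females (log2 fold change 0.95 ± 0.44 SE), and at 175, 138, 73.1, 145 and 64.6 and 226, 129.8, 215 and 104 in males (0.58 ± 0.27). *Cd68* was at 234, 234, 186.5 and 154 and 392, 322, 318 and 209.6 in females (0.68 ± 0.19), and at 157, 160.3, 79.1, 116 and 87.2 and 173, 128, 146 and 109 in males (0.28 ± 0.16). *Siglec1* was at log2 fold changes of 0.69 ± 0.45 in females and 0.40 ± 0.22 in males, *Slc40a1* at 0.72 ± 0.16 and 0.14 ± 0.13, and *Vsig4* at -0.52 ± 0.35 and -0.18 ± 0.27. Within the series of mouse numbers *Hmox1* differed by 0.55 (3 leptin and 2 PBS mice) and 1.89 (1 and 1) in females on the log2(TPM + 1) scale, and by 0.90 (1 and 2) and 0.80 (1 and 3) in males. The remaining cKO mice were in series with samples of 1 group only. The summed erythroid markers were at 554 to 2319 with PBS and 1107 to 3436 with leptin in females and at 1135 to 3339 and 2468 to 12403 in males, and their part in *Hmox1* was not tested.

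The leptin effect itself was compared between groups by interaction tests, since a call in one group and none in another does not show a difference. No member was called for leptin by sex in WT CV (lowest adjusted p = 0.633, 1 member with an unadjusted p under 0.05), for leptin by genotype in CV (0.819, 1 member) or for leptin by insulin in male WT CV (0.529, 8 members). Of all tested genes 4.81%, 3.01% and 4.56% were positive at that unadjusted p, and 2.79%, 2.99% and 4.75% negative. DESeq2 also called 0 members in each, and edgeR called 0% of all tested genes in each. For *Hmox1* the leptin effect differed by 0.24 ± 0.37 SE between females and males in log2 and by -0.26 ± 0.28 between genotypes.

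With the 40 CV libraries without insulin in 1 fit, 7 members were called higher with leptin and none lower, beside 3.27% and 2.1% of tested genes (5.37% in all). *Hmox1* was at 1.09 ± 0.14 SE (adjusted p = 2.95e-07), *Ccl8* at 0.80 ± 0.16 (0.000333) and *Siglec1* at 0.75 ± 0.16 (0.000521). *Fcgr4*, which was called in no single group, was at 0.68 ± 0.18 (0.00491), and *Cd68* was at 0.57 ± 0.09 (3.43e-06). *Fcgr1* and *Slc40a1* were at 0.57 ± 0.13 (0.00146) and 0.55 ± 0.10 (0.000139). By role these are 3 of 7 pan-macrophage, 1 of 12 resident, 0 of 6 lipid-associated, 2 of 5 iron-recycling and 1 of 8 inflammatory genes. The lipid-associated genes had log2 fold changes of -0.07 to 0.34, all under the fold threshold. Of these, 4 were higher at an unadjusted p under 0.05, beside 20.1% of all tested genes, with a lowest adjusted p of 0.00595. Without the fold threshold 18 members were higher and 2 lower. A covariate for the number series left the count at 7. *Fcgr4* was at a TPM of 5.33, 8.23, 11.7, 5.42 and 8.74 with PBS and 13.2, 13.1, 12.4, 8.00 and 9.40 with leptin in female WT mice, 9.86, 12.6, 5.64 and 3.99 and 30.0, 14.1, 17.2 and 5.30 in female cKO mice, and 8.89, 6.31, 4.21, 6.96 and 4.06 and 11.9, 4.91, 4.30 and 6.93 in male cKO mice. In male WT mice it was at 2.92, 2.04, 8.22, 3.03 and 2.44 with PBS and had a lowest TPM of 4.80, a median of 6.93 and a highest of 11.7 with leptin. It overlapped between PBS and leptin in each of these 4 pairs of groups.

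**Figure D3:**
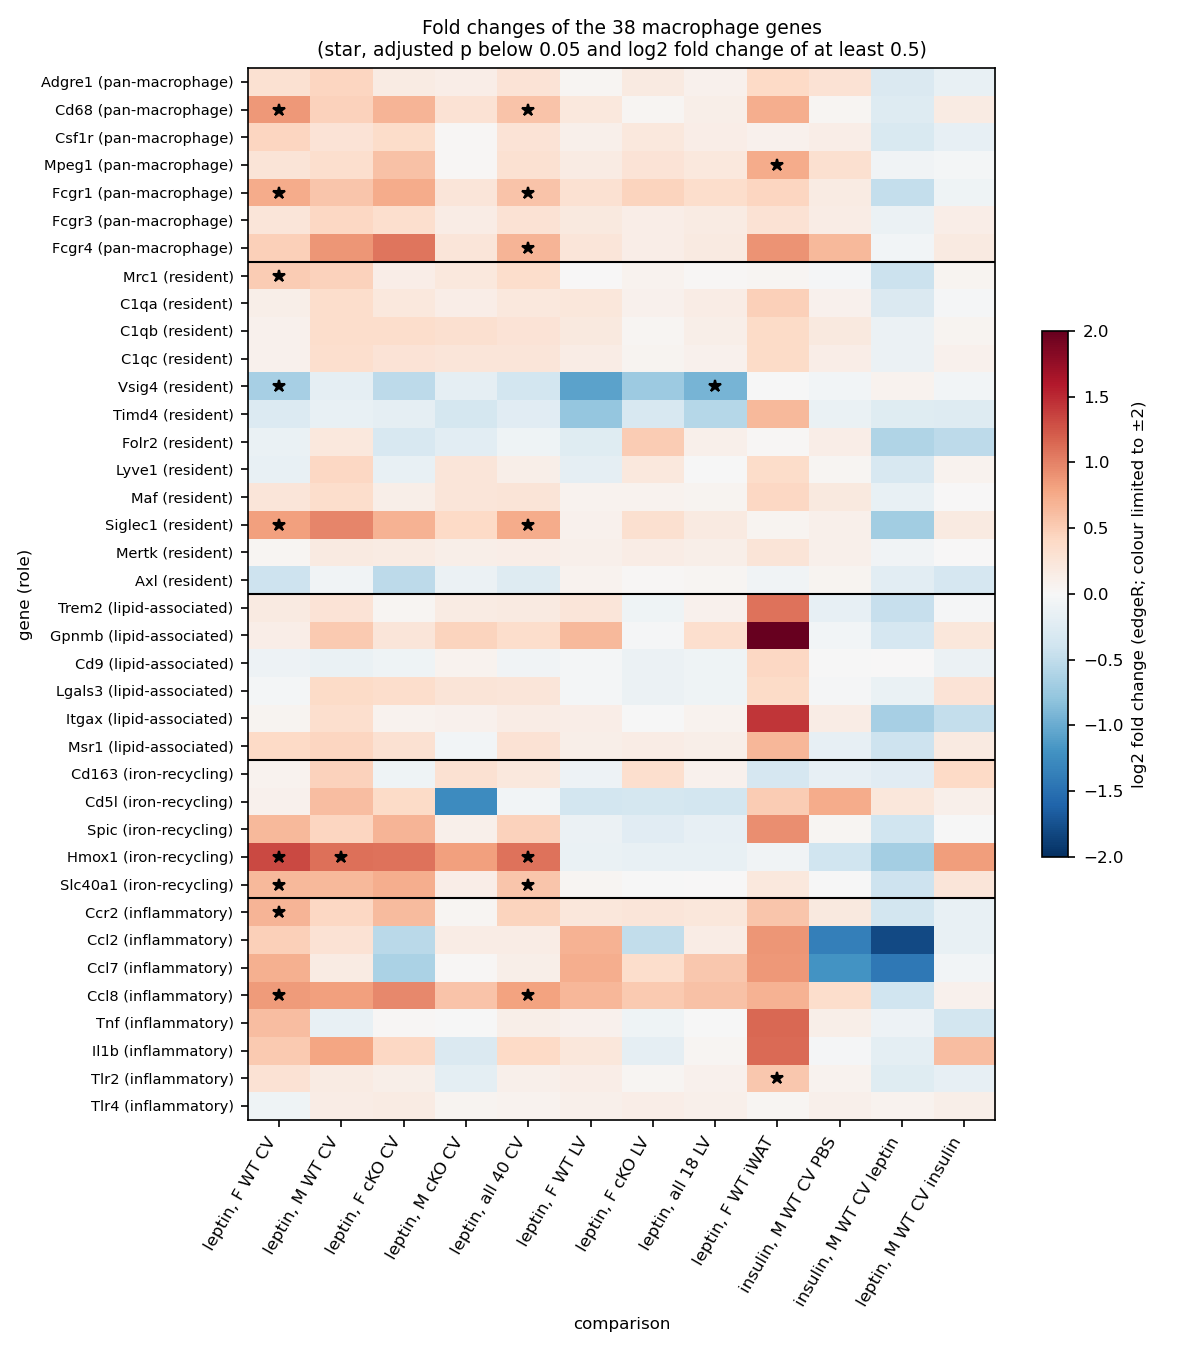
Log2 fold changes of the 38 genes (rows, by role) in the 9 leptin comparisons and the 3 comparisons with the insulin pellet (columns), where colour is limited to 2 in either direction and a star marks a call. F and M are female and male. The stars lie mainly in the female WT and the pooled CV columns, with 8 higher and 1 lower in the first and 7 higher in the second, and the lipid-associated rows hold none.

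In LV leptin gave no called member within either genotype. In female WT mice 3 were higher and 1 lower at an unadjusted p under 0.05, beside 7.38% and 7.3% of all tested genes. In female cKO mice 1 was higher and 2 lower, beside 4.41% and 4.54%. DESeq2 called none in either. Of all tested genes 0% were called in each. Over the 18 LV libraries *Vsig4* alone was called, and lower (log2 fold change -0.93 ± 0.27 SE, adjusted p = 0.0479), beside 0.565% of tested genes called lower and 1.11% called either way. Its TPM was 0.67, 3.40, 2.06, 1.64 and 3.44 with PBS and 1.00, 1.77, 1.20, 0.97 and 0.57 with leptin in WT mice, and 1.61, 1.58, 2.11 and 0.98 and 0.96, 1.03, 1.26 and 0.84 in cKO mice. These are low levels, at 23 to 134 counts per library, and the call was lost in 21 of 28 alternative settings, 15 of which left out a single library. Within the 2 number series of WT mice *Vsig4* differed by -0.26 and -0.85 on the log2(TPM + 1) scale. *Hmox1* was at 129, 115, 143, 96.5 and 117 with PBS and 133, 111, 104, 153 and 65.9 with leptin in WT LV (log2 fold change -0.13 ± 0.15 SE, adjusted p = 0.738), and the groups overlapped. *Ccl8* was at 2.98, 3.61, 4.31, 1.63 and 6.39 with PBS and 19.9, 4.55, 1.50, 3.00 and 3.19 with leptin (log2 fold change 0.66 ± 0.60 SE, adjusted p = 0.657). *Cd68* was at 76.1, 75.2, 76.5, 74.7 and 116 with PBS and 113, 83.6, 103, 109 and 90.2 with leptin (log2 fold change 0.21 ± 0.13 SE, adjusted p = 0.511). Of the lists of other macrophage genes, *Cd14* 0.80 and *Irf7* 0.55 were called higher over the 18 libraries.

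In iWAT of female WT mice leptin gave positive fold changes for 34 of 38 members with a median of 0.43, beside 57.5% of all tested genes, and 2 members were called higher. This share is below the 7.24% of all tested genes called higher, and none was called lower beside 7.87%. With scaling by total counts 6 members were called and the median of all genes moved up to 0.18, so that 1757 genes were higher and 895 lower in place of 1077 and 1171. *Mpeg1* was at a TPM of 41.8, 30.5, 42.8, 34.5 and 45.7 in the PBS mice and 53.3, 52.2, 74.7, 51.2 and 72.6 in the leptin mice. The groups did not overlap (log2 fold change 0.74 ± 0.15 SE, adjusted p = 0.00631), and the call held in all 20 alternative settings run. Of all tested genes 4.32% were likewise higher in every leptin mouse than in every PBS mouse, and of the 38 members 1 was. *Tlr2* was at a TPM of 6.63, 7.23, 8.65, 5.19 and 5.79 in the PBS mice and 11.6, 7.09, 10.8, 8.51 and 7.60 in the leptin mice. This difference was near the threshold (log2 fold change 0.54 ± 0.17 SE, adjusted p = 0.0412), with the second leptin mouse inside the PBS range, and it was lost in 11 of 20 settings. Leaving out single mice moved the count of called members between 1 and 7, with 7 without the second leptin mouse, 6 without the third PBS mouse, and 1 without the first leptin mouse or without the second, the fourth or the fifth PBS mouse. In these refits the share of all tested genes called was not taken, so the counts are not a result about the members.

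Genes of lipid-associated macrophages had the highest median fold change of any role in iWAT, 0.88, with none of 6 called. *Gpnmb* and *Itgax* were chosen for display after their values were seen. *Gpnmb* was at a TPM of 16.0, 50.1, 29.8, 13.6 and 18.3 in the PBS mice and 30.0, 23.9, 429, 25.9 and 89.2 in the leptin mice. The third leptin mouse was far above the rest, and without a call the value stands at log2 fold change 2.30 ± 0.85 SE, adjusted p = 0.0683. *Itgax* was at a TPM of 3.37, 3.24, 3.94, 3.14 and 4.42 in the PBS mice and 5.88, 3.78, 24.7, 4.39 and 6.59 in the leptin mice. The same mouse was the highest (log2 fold change 1.43 ± 0.49 SE, adjusted p = 0.0505). *Trem2* was at 7.30, 29.1, 14.7, 4.82 and 7.66 with PBS and 16.7, 4.69, 73.7, 9.39 and 21.8 with leptin (log2 fold change 1.08 ± 0.72 SE, adjusted p = 0.290). Of the inflammatory genes *Tnf*, *Il1b* and *Ccl2* were at log2 fold changes of 1.14, 1.13 and 0.88, with adjusted p of 0.0727, 0.0523 and 0.110. *Cd68* was at 52.4, 66.3, 94.0, 38.2 and 61.8 with PBS and 82.8, 62.1, 175.5, 67.6 and 94.9 with leptin (log2 fold change 0.73 ± 0.31 SE, adjusted p = 0.107).

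Within the 2 series of mouse numbers *Mpeg1* differed by 0.46 and 0.70 on the log2(TPM + 1) scale in iWAT and *Tlr2* by 0.26 and 0.61. *Cd68* differed by 0.06 and 1.08, so its difference lay in the higher-numbered series. Other macrophage genes were called in iWAT as well. They included *Ctss* 0.97, *Lyz2* 0.74, *Laptm5* 0.64 and *Tyrobp* 0.61 of 18 identity genes and *Cxcl2* 2.55, *Il4ra* 0.86 and *Nfkbia* 0.79 of 23 activation genes, all higher. *Cxcl2* rests on low levels, at a TPM of 0.0 to 0.2 with PBS and 0.17 to 1.91 with leptin. Of 16 lipid-associated genes 3 were higher and 7 lower, the largest being *Fabp5* -2.07, *Cd36* -1.36, *Ctsd* -1.24 and *Fabp4* -1.11, of which *Cd36* and *Fabp4* are abundant in adipocytes themselves. Of 14 iron genes 1 was higher and 4 lower, the largest being *Hp* -1.16 and *Slc48a1* -1.02. The summed adipocyte markers ran at 20354 to 29077 with PBS and 41402 to 65305 with leptin, erythroid markers at 1405 to 1977 and 148 to 827, B cell markers at 70.4 to 330.7 and 7.15 to 590.0, and T cell markers at 72.4 to 195 and 22.2 to 415. The adipocyte sum moved up while *Cd36* and *Fabp4* moved down. A sum of TPM is led by its most abundant genes, so it does not show how many of the markers moved up. The part of these cells in these results was not tested.

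**Figure D4:**
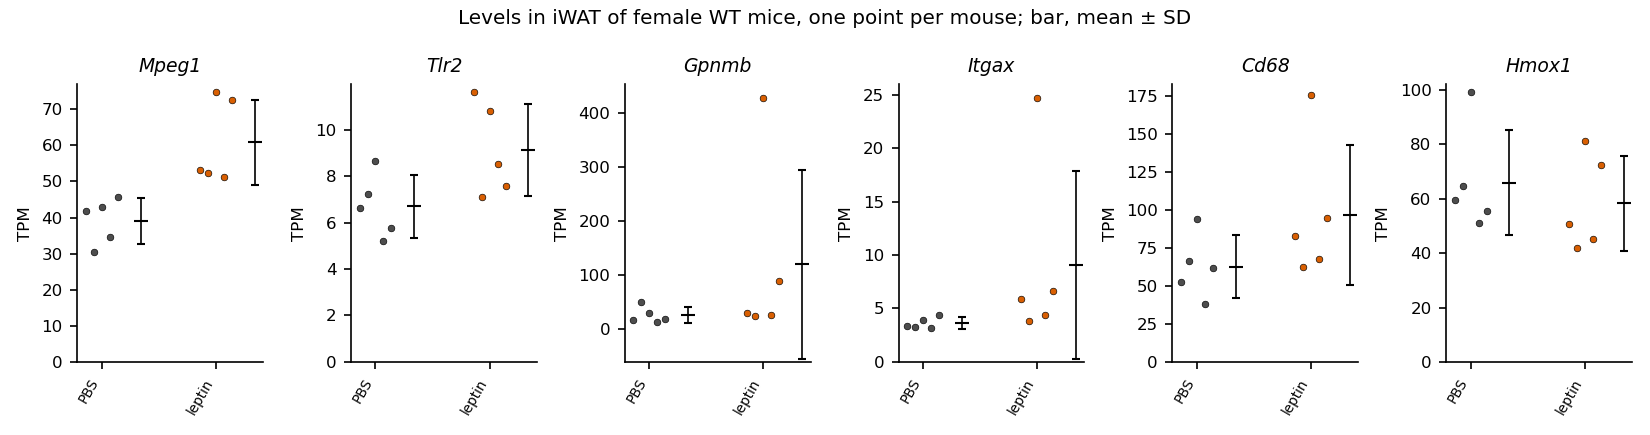
TPM of Mpeg1, Tlr2, Gpnmb, Itgax, Cd68 and Hmox1 in iWAT of the 5 PBS and 5 leptin female WT mice, with 1 point per mouse and the bar and error bar giving the mean and SD. The Mpeg1 points lie at 30.5 to 45.7 with PBS and 51.2 to 74.7 with leptin, and a single leptin mouse reaches 429 in Gpnmb.

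The leptin effect on *Hmox1* differed between CV and iWAT. In iWAT *Hmox1* was at a TPM of 59.4, 64.6, 99.1, 51.2 and 55.4 with PBS and 50.9, 42.0, 81.3, 45.4 and 72.5 with leptin, a log2 fold change of -0.07 ± 0.23 SE, whereas it was 1.31 ± 0.25 in CV of the same mice. The interaction of leptin and tissue was called (1.42 ± 0.37 SE, adjusted p = 0.0146), as the only one of 38 members, beside 9.12% of tested genes with a positive and 6.33% with a negative interaction. The fit held no term for the mouse, although each mouse gave both tissues. Total-count scaling changed that split of all genes from 1357 and 942 to 792 and 1602, and *Hmox1* kept its call. The third PBS mouse in iWAT, at 99.1, lay apart from the other 4, and the interaction was not refitted without it. Between LV and iWAT no member was called (lowest adjusted p = 0.0654, *Mpeg1*), beside 19.8% of tested genes called either way. This fit too held no term for the mouse. DESeq2 and total-count scaling called 1 member each, and DESeq2 called 3484 of all tested genes.

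Loss of ATGL in marrow adipocytes was compared with WT in 4 ways, and no member was called in any. In CV with PBS, of all tested genes 0% were called either way in females and in males, and 2 members had an unadjusted p under 0.05 in each sex (lowest adjusted p = 0.369 and 0.917). At that unadjusted p 5.38% of all genes were higher and 4.55% lower in females, and 2.74% and 2.53% in males. Over the 40 CV libraries 4 members had an unadjusted p under 0.05 and 0.269% of all genes were called (0.175% higher and 0.0941% lower), and over the 18 LV libraries the values were 4 and 0.0202% (0.0134% and 0.00672%). By unadjusted p 7.7% of all genes were higher and 6.51% lower in CV, and 3.25% and 1.3% in LV. DESeq2 called 0 members in each of the 4. Some WT and cKO mice were in different series of mouse numbers, so part of any genotype difference cannot be told apart from the series. Over the 38 members the median log2 fold change was -0.01 in all CV. For *Cd68* the value was 0.22 ± 0.08 SE, for *C1qc* -0.02 ± 0.07, for *Trem2* 0.02 ± 0.06 and for *Hmox1* -0.38 ± 0.14. The largest value in LV was in *Timd4* (log2 fold change 1.38 ± 0.36 SE, adjusted p = 0.504), a gene at a TPM of 1.13 to 4.21 in the WT PBS mice.

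The insulin pellet, given to male WT mice, was compared with no pellet under leptin and under PBS. Under leptin 34 of 38 members had negative fold changes, with a median of -0.27 and 16 at an unadjusted p under 0.05, all lower, beside 9.01% of all tested genes. None was called, beside 0.141% of tested genes called higher and 0.222% called lower. DESeq2 called 3 members and 174 of all tested genes. *Ccl2*, the monocyte chemoattractant, had the largest value. The 8 leptin mice had a lowest TPM of 11.8, a median of 63.8 and a highest of 209, and the 6 leptin mice with insulin had a lowest TPM of 6.39, a median of 21.7 and a highest of 39.5. The groups overlapped (log2 fold change -1.81 ± 0.53 SE, adjusted p = 0.0924). *Ccl7*, *Siglec1*, *Hmox1*, *Itgax* and *Trem2* were at log2 fold changes of -1.43, -0.70, -0.67, -0.66 and -0.46, with adjusted p of 0.178, 0.145, 0.115, 0.0843 and 0.0692. By role, 3 of 7 pan-macrophage, 4 of 12 resident, 4 of 6 lipid-associated, 2 of 5 iron-recycling and 3 of 8 inflammatory genes were lower at an unadjusted p under 0.05. Of the lists of other macrophage genes only *Cxcl1* was called (-1.96).

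Under PBS no member was called with insulin. By unadjusted values 1 had an unadjusted p under 0.05 (*Ccl2*, -1.36 ± 0.60 SE), beside 2.25% of all tested genes higher and 4.32% lower. The median over the members was 0.08, and 0% of tested genes were called. Between leptin and PBS in mice with the pellet, none was called either, beside 0.141% called higher and 0.417% lower. At an unadjusted p under 0.05 were 5 members, 2 higher and 3 lower, beside 7.35% and 8.2% of all tested genes. DESeq2 called 1 member and 229 of all tested genes. *Hmox1* was at 104, 70.8, 58.9, 60.3 and 54.8 in the 5 PBS mice with insulin, and the 6 leptin mice with insulin had a lowest TPM of 101, a median of 105 and a highest of 153. The highest of these PBS mice reached the leptin range (log2 fold change 0.83 ± 0.24 SE, adjusted p = 0.0845). All insulin mice had a number series of their own, so insulin and the number series cannot be told apart in the comparisons with and without insulin.

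The 3 tissues were compared in the same 5 female WT PBS mice and described by where each member was highest. By mean TPM 20 of 38 members were highest in CV, 11 in LV and 7 in iWAT, beside 49.9%, 14.0% and 36.2% of all tested genes. All 6 lipid-associated genes were highest in CV, 4 of them without overlap with the next tissue, and 4 of 5 iron-recycling genes were highest in LV, 3 without overlap. Of all tested genes 28.8% were highest in CV without overlap and 8.78% in LV. Resident genes were highest in CV in 7 cases and in iWAT in 5, and in LV in none. Inflammatory genes divided into 3 in CV, 4 in LV and 1 in iWAT, and pan-macrophage genes into 4 in CV and 3 in LV. LV is blood-forming tissue, with summed neutrophil markers at 148442 to 179794 and erythroid markers at 108592 to 151345, against 2173 to 11505 and 1174 to 3766 in CV. A fold change between tissues depends on how the libraries are scaled, so the members whose sign turned with the scaling are named below.

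Between CV and LV 18 members were called higher in CV and 12 lower, beside 34.9% and 31.7% of all tested genes (66.6% in all). By TPM every CV mouse was above every LV mouse in 24 members and below in 7, beside 71.6% and 11.4%. The 3 largest toward CV were *Lyve1*, *Folr2* and *Ccl7*. *Lyve1*, a hyaluronan receptor, was at a TPM of 85.02, 95.6, 81.8, 78.0 and 106 in CV, 1.27, 1.03, 1.13, 1.02 and 1.69 in LV and 22.3, 22.0, 28.2, 14.9 and 36.3 in iWAT. CV was clear of LV by a wide gap (log2 fold change 5.07 ± 0.14 SE, adjusted p = 1.01e-11). *Folr2*, a folate receptor, was at 49.2, 51.9, 50.95, 43.9 and 52.6 in CV, 0.69, 0.78, 0.42, 0.54 and 1.13 in LV and 89.1, 108, 189.5, 56.1 and 93.4 in iWAT (log2 fold change 4.98 ± 0.18 SE, adjusted p = 8.33e-11). *Ccl7*, a monocyte chemokine, was at 11.6, 12.9, 16.6, 12.2 and 30.5 in CV, 0.29, 0.22, 0.58, 0.46 and 0.16 in LV and 22.2, 11.6, 19.1, 9.92 and 5.66 in iWAT (log2 fold change 4.41 ± 0.37 SE, adjusted p = 1.70e-07). The 3 largest toward LV were *Cd5l*, *Il1b* and *Fcgr4*. *Cd5l*, a secreted protein of macrophages, was at 0.10, 0.24, 1.10, 0.60 and 0.15 in CV, 18.2, 26.9, 36.0, 17.3 and 30.6 in LV and 3.15, 2.99, 5.59, 2.48 and 4.32 in iWAT. LV was clear above both other tissues (log2 fold change -6.97 ± 0.38 SE, adjusted p = 2.40e-09). *Il1b* was at 3.17, 6.24, 8.08, 4.04 and 5.81 in CV, 24.4, 28.6, 25.6, 12.2 and 23.9 in LV and 0.38, 1.09, 1.89, 1.33 and 1.35 in iWAT (log2 fold change -3.15 ± 0.24 SE, adjusted p = 7.57e-08). *Fcgr4* was at 5.33, 8.23, 11.7, 5.42 and 8.74 in CV, 25.5, 31.5, 29.9, 22.5 and 46.3 in LV and 7.05, 5.44, 8.50, 4.83 and 9.40 in iWAT (log2 fold change -3.10 ± 0.24 SE, adjusted p = 8.36e-08). By role 11 of 12 resident genes were called higher in CV and none lower, while 4 of 5 iron-recycling genes and 4 of 7 pan-macrophage genes were called lower and 1 of each higher. Of the lipid-associated genes 2 of 6 were called higher, *Trem2* (1.47 ± 0.10 SE) and *Gpnmb* (1.68 ± 0.14), and none lower, while *Lgals3*, *Itgax* and *Msr1* had log2 fold changes of -0.09, -0.30 and -0.24. Inflammatory genes divided into 3 higher and 4 lower. On the scale of log2(TPM + 1), which moves the median of all genes by 0.87 toward CV, the sign turned in 7 members (*Adgre1*, *Cd68*, *Fcgr1*, *Timd4*, *Lgals3*, *Itgax* and *Msr1*), of which *Adgre1* had been called lower (log2 fold change -0.58 ± 0.11 SE, adjusted p = 0.000232). With total-count scaling, a shift of 0.33, it turned in *Lgals3*, *Itgax* and *Msr1*, and the split of all called genes went from 5184 and 4714 to 6442 and 3445.

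Between CV and iWAT 17 members were called higher in CV and 5 lower, beside 26% and 24.5% of tested genes. *Vsig4*, at a TPM of 16.4, 22.2, 17.9, 17.6 and 19.0 in CV, 0.67, 3.40, 2.06, 1.64 and 3.44 in LV and 1.48, 1.89, 3.72, 1.16 and 1.75 in iWAT, had the largest difference toward CV (log2 fold change 3.05 ± 0.26 SE, adjusted p = 7.98e-07). *Slc40a1* was at 26.0, 27.2, 29.3, 43.0 and 39.6 in CV, 73.9, 65.3, 78.0, 56.0 and 69.7 in LV and 4.22, 5.35, 6.55, 5.46 and 6.04 in iWAT (log2 fold change 2.43 ± 0.15 SE, adjusted p = 7.78e-08), and *Il1b* followed (log2 fold change 2.02 ± 0.35 SE, adjusted p = 0.000303). In all 3 the CV mice were clear above the iWAT mice. By TPM this held in 15 members and the reverse in 3, beside 34.7% and 22.0% of all tested genes. Toward iWAT *Cd5l* led (log2 fold change -3.22 ± 0.50 SE, adjusted p = 0.000125), followed by *Timd4*, at 5.82, 7.25, 8.81, 6.30 and 6.34 in CV, 3.68, 1.58, 4.21, 2.97 and 1.13 in LV and 21.1, 5.81, 12.0, 29.3 and 15.7 in iWAT (log2 fold change -1.92 ± 0.33 SE, adjusted p = 0.000270), and *Folr2* (log2 fold change -1.27 ± 0.26 SE, adjusted p = 0.000835). Of the lipid-associated genes 4 of 6 were called higher in CV, namely *Trem2* (1.73 ± 0.40 SE), *Cd9* (1.65 ± 0.10), *Lgals3* (1.54 ± 0.19) and *Msr1* (1.14 ± 0.18). The sign turned with total-count or TPM scaling in *Itgax* and *Hmox1*, which were not called, and the split of all called genes went from 3870 and 3637 to 4753 and 2931 with total counts.

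Between LV and iWAT 17 members were called higher in LV and 15 lower, beside 32.6% and 33.9% of tested genes. By TPM every LV mouse was above every iWAT mouse in 11 members and below in 18, beside 14.2% and 62.9%. Toward LV the largest were *Il1b* (log2 fold change 5.16 ± 0.29 SE, adjusted p = 6.90e-09), *Slc40a1* (log2 fold change 4.55 ± 0.12 SE, adjusted p = 1.41e-11) and *Cd5l* (log2 fold change 3.73 ± 0.25 SE, adjusted p = 3.65e-08). Toward iWAT they were *Folr2* (log2 fold change -6.27 ± 0.38 SE, adjusted p = 1.36e-08), *Ccl8* (log2 fold change -4.73 ± 0.38 SE, adjusted p = 1.88e-07) and *Ccl7* (log2 fold change -4.31 ± 0.44 SE, adjusted p = 1.59e-06). *Ccl8* was at a TPM of 122, 104, 115, 122 and 135 in CV, 2.98, 3.61, 4.31, 1.63 and 6.39 in LV and 221, 154, 373.6, 126 and 145 in iWAT. *Hmox1* was at 58.9, 43.8, 50.4, 116 and 74.5 in CV, 129, 115, 143, 96.5 and 117 in LV and 59.4, 64.6, 99.1, 51.2 and 55.4 in iWAT, so that CV and iWAT did not differ beyond their spread (log2 fold change -0.12 ± 0.25 SE, adjusted p = 0.679), and LV was called higher than CV (-1.93 ± 0.20 SE for CV against LV) and than iWAT (1.80 ± 0.16 for LV against iWAT). *C1qc* was at 417, 369.6, 428, 495 and 566 in CV, 88.8, 96.2, 103, 83.9 and 121 in LV and 331.5, 342, 522, 231 and 293 in iWAT, with LV lowest in all 5 mice. The sign turned on the log2(TPM + 1) scale in *Adgre1*, *Csf1r*, *Fcgr1*, *Trem2*, *Itgax* and *Tlr4*, of which *Adgre1* had been called higher in LV (log2 fold change 0.63 ± 0.20 SE, adjusted p = 0.0122), and in none with total counts. The summed monocyte markers were at 2842 to 3788 in LV, 451 to 579 in CV and 144 to 412 in iWAT. Neutrophil markers summed to 199.5 to 485 in iWAT. The part of these cells in the differences of shared genes such as *Il1b*, *Tlr2* and *Fcgr3* was not tested.

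**Figure D5:**
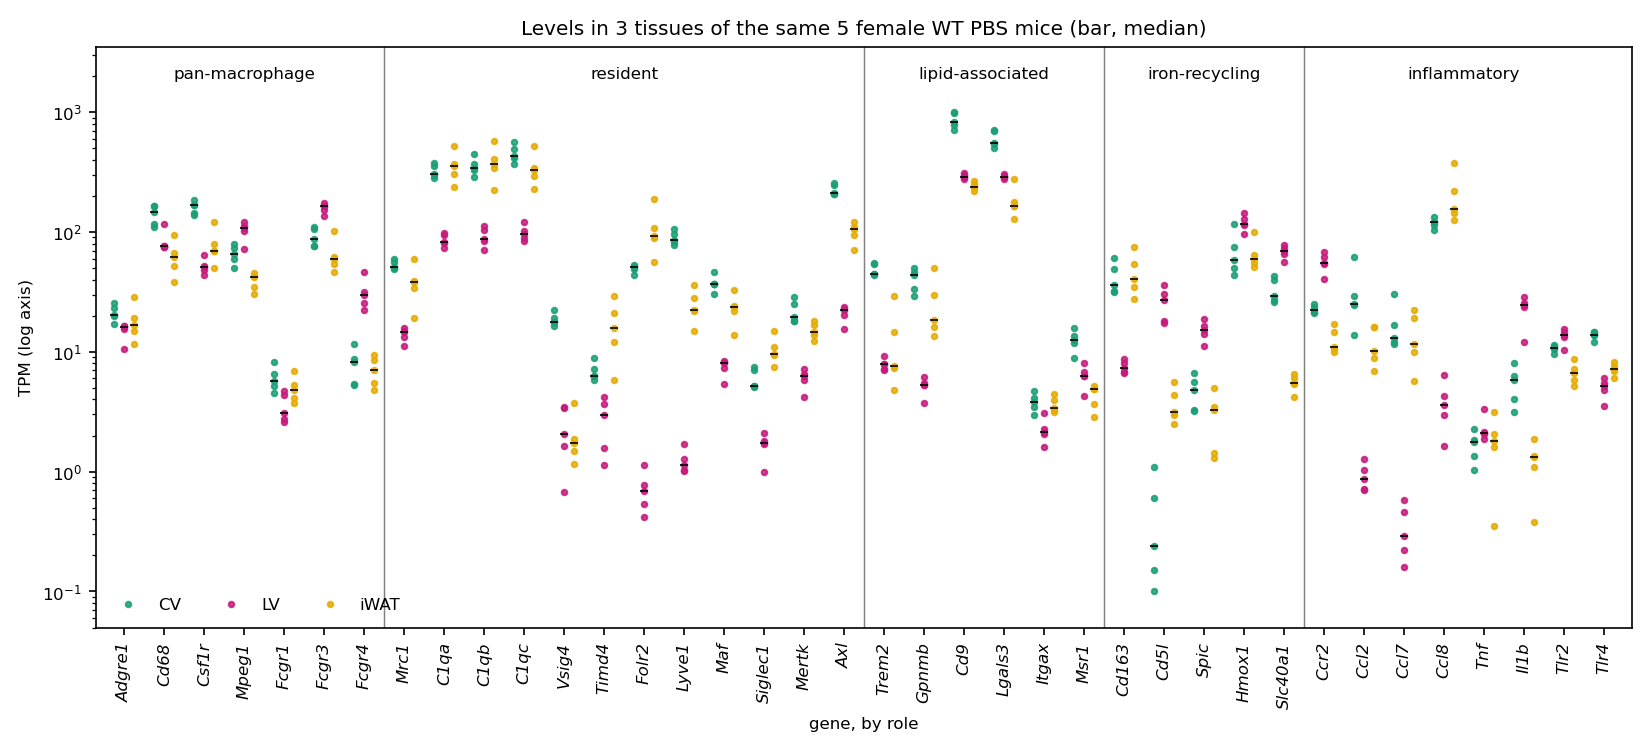
TPM (log axis) of the 38 genes, by role, in CV, LV and iWAT of the same 5 female WT PBS mice, with 1 point per mouse and tissue and the bar giving the median. Lyve1 lies at 78.0 to 106 in CV and 1.02 to 1.69 in LV, whereas Cd5l lies at 0.10 to 1.10 in CV and 17.3 to 36.0 in LV.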

How the data were processed

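RNA from CV, LV and iWAT was sequenced on DNBSEQ as 100 bp paired reads after oligo dT selection. The authors cleaned the reads with SOAPnuke and mapped them to GRCm38.p6 with HISAT and Bowtie2, and GRCm39 is also named in the submitters' processing notes. The tool that counted reads and the use of strand are not given in the sources used here. The deposited table of estimated counts (51 values in 6 genes not whole) was rounded to whole numbers, and the deposited TPM table gave the levels printed. Libraries were grouped by their labels, and each replicate is a separate mouse.

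The test was edgeR 4.0.16 (R 4.3.3), quasi-likelihood with TMM scaling and Benjamini-Hochberg adjustment over the 14873 genes with a numeric identifier and a mean TPM of at least 0.4. Each SE is the absolute log2 fold change over the square root of F, and p-values of single comparisons set the group difference against the spread between mice. The main fits of the 3 tissue comparisons held no term for the mouse, although each mouse gave all 3 tissues. Interactions were called at an adjusted p under 0.05. Alternatives were DESeq2 1.42.0, limma 3.58.1 on log2(TPM + 1) or log2(TPM + 0.1), other scalings and filters, the number series, a replicate block and leaving out each library. The last 3 were not run for interactions. The fits were tested on simulated counts. Numbers in CV, LV and iWAT mark the same mouse (mouse numbers in the labels), with deviations correlating at -0.00509 to 0.299, and blocked tissue fits called 30, 22 and 31 members in place of 30, 22 and 32. The members and lists were chosen with earlier results of these data known. Values per mouse are given for members called with leptin or insulin, for the 3 largest each way between tissues and for the highest TPM of each role in female WT PBS CV. Further genes, including Trem2, Tnf, Il1b and Ccl2, were named after their values were seen. For other lists at most 4 called genes per comparison are named, and a gene of these lists is not reported here. Promoters were RefSeq windows for 26 of 38 members. Library totals were 16100377 to 29757254 counts, and Vsig4 in LV rests on 23 to 134 of them per library.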

Additional observations from a re-analysis of the deposited data

Results flagged for a closer look

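Of 224 sets of 4 to 8 mice, from 14 members, 16 held a single mouse whose gap to its nearest neighbour was a large part of the whole range by Dixon's 95% limit, where chance gives about 1 in 20. In CV these were *Fcgr1* at a TPM of 10.3 and *Fcgr4* at 8.22 in male WT PBS mice, *Fcgr4* at 11.7 and *Siglec1* at 9.73 in male WT leptin mice, *Mrc1* at 71.4 in leptin mice with insulin and *Ccl8* at 262 in PBS mice with insulin. In female CV they were *Tlr2* at 17.7 in WT leptin mice, and *Vsig4* at 4.32 and *Hmox1* at 222 in cKO leptin mice. In LV of WT mice they were *Cd68* at 116 with PBS and *Ccl8* at 19.9 with leptin. In iWAT they were *Vsig4* at 3.72 and *Hmox1* at 99.1 with PBS, and *Cd68* at 175.5, *Gpnmb* at 429 and *Itgax* at 24.7 with leptin.

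The last 3 came from the same iWAT leptin mouse, the third. The leptin effect on *Hmox1* also differed between CV and iWAT by the interaction test of edgeR, by 1.42 on the log2 scale, in 7 of 7 alternative settings with the same call. None of these settings held a term for the mouse or left a mouse out.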

How the results depend on the processing

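Of the values of called members under settings other than leaving out a mouse, 1005 kept direction and call, 38 lost the call and 4 changed sign. With single mice left out, 780 kept direction and call and 61 lost the call. The 4 sign changes were *Adgre1*, at 0.48 and 0.50 for CV against LV and at -0.22 and -0.23 for LV against iWAT by limma on log2(TPM + 1) and log2(TPM + 0.1). Counts of called members moved by over 1.5 times in the following cases. DESeq2 called 5 with leptin in male WT CV (1 by edgeR), 2 and 1 in female and male cKO CV (0), 6 in iWAT (2), 1 for leptin with insulin (0), 3 for insulin under leptin (0), 2 for the interaction of CV and iWAT (1) and 1 for that of LV and iWAT (0). Of all tested genes DESeq2 called 460, 219, 211, 2500, 229, 174, 2770 and 3484, in the same order. In male WT CV both limma fits, no fold threshold and the number series as covariate each called 2. Over all CV no fold threshold gave 20 in place of 7. Over all LV, RLE size factors, total counts, no low-value filter and both limma fits gave 0 in place of 1. In iWAT, RLE gave 1, total counts 6, a mean TPM of at least 1 gave 4, and both limma fits 1. Total counts also gave 1 for the interaction of LV and iWAT.

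Same-numbered leptin and PBS mice share a number only. The correlations of their deviations ran from -0.271 to 0.406 in female WT CV. With a replicate block on that number, 7 members were called in female WT CV, 9 over all CV, 0 over all LV, 5 in iWAT, 1 for leptin with insulin and 1 for insulin under leptin, and no other count moved by over 1.5 times. The share of all tested genes called was taken for the main fits, DESeq2 and total counts only. For all other settings, with mice left out among them, the member counts therefore have no such share beside them.

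Leaving out each mouse in turn gave 5 to 9 members in female WT CV, 0 to 4 in male WT CV (4 without the third PBS mouse, 0 without the fourth or the fifth), 0 to 1 in male cKO CV (1 without the fourth PBS mouse), 7 to 8 over all CV, 0 to 1 over all LV, 1 to 7 in iWAT, and 0 to 1 for insulin under leptin (1 without the third leptin mouse or without the second or the sixth with insulin). In female WT CV *Hmox1*, *Cd68*, *Ccl8*, *Siglec1* and *Ccr2* were called in all 20 alternatives, while *Mrc1* lost its call in 11, *Fcgr1* in 9, *Slc40a1* in 8 and *Vsig4* in 1. Levels under a TPM of 1 rest on few counts.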
